A study of Mus musculus with 5 samples.

Results

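The macrophages described here are tumour cells gated by complement C1q transcripts. A cell entered when its raw counts of C1qa, C1qb and C1qc summed to at least 10 unique molecular identifiers (UMIs, each the tag of a single captured transcript) and when Krt8, Krt18 and Epcam, transcripts of the mammary epithelium, summed to under 8 per 10000 of its UMIs. The gate took 539 of 15958 cells: 44 came from the library fresh 10x 1, 69 from fresh 10x 2, 107 from stored 10x, 167 from BD 1 and 152 from BD 2. These cells were chosen by the readout itself, so levels of the gate transcripts, and of every other gene in gated cells against the other cells, are given as a description with no test.

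The study ran mammary tumours of PyMT mice through different single-cell RNA sequencing systems. This is a model in which the polyoma virus middle T antigen drives tumours of the mammary epithelium. All groups share this model, tumour digestion and enrichment of viable cells, and none received a drug or other agent. Fresh 10x (2 libraries) and stored 10x (1 library, from a digest kept overnight at 4 °C, titled 24 h) were run on the 10x Chromium 3' v2 droplet system, and BD 1 and BD 2 (1 library each) on the BD Rhapsody microwell system. BD 1 is fresh by its title, whereas the title of BD 2 says fresh and its files are named for 24 h, so BD 2 was given no storage state. The sources used here do not give the promoter that drives the antigen, the strain, the age or number of the animals, or whether libraries of a group come from separate tumours. The p-values below therefore measure only the spread between these libraries, which may be technical.

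C1q is the recognition component of the classical complement pathway, built from A, B and C chains that bind antibody complexes and dying cells. Tissue macrophages are its main source, which makes its transcripts a usual marker of tumour-associated macrophages in mammary tumours. Such macrophages depend on the CSF1 receptor, take up debris into lysosomes, carry lipid on apolipoprotein E, and present peptides on MHC class II, whose genes are switched on together by the coactivator CIITA at promoters that carry an X and a Y box.

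Class II genes were among the transcripts most concentrated in the gated cells of all 5 libraries and varied widely from cell to cell, so promoter windows of 2 of them are shown. The windows are from RefSeq on build GRCm38.p6 and run from 250 bases before to 50 bases after the annotated start, so they cover the upstream flank and the first transcribed bases. H2-Aa encodes the class II alpha chain and lies on the minus strand at chr17:34287774-34288073. H2-Eb1 encodes a class II beta chain and lies on the plus strand at chr17:34305617-34305916. Capitals mark the letters CTGATTGG, a Y-box sequence that holds the inverted CCAAT letters. The match begins 51 bases before the start in H2-Aa and 62 bases before it in H2-Eb1.
H2-Aa: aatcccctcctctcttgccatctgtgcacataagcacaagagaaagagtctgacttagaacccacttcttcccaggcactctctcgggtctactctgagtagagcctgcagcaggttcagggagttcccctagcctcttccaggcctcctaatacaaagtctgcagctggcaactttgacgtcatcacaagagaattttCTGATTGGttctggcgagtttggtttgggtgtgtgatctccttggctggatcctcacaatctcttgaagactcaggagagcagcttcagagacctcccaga
H2-Eb1: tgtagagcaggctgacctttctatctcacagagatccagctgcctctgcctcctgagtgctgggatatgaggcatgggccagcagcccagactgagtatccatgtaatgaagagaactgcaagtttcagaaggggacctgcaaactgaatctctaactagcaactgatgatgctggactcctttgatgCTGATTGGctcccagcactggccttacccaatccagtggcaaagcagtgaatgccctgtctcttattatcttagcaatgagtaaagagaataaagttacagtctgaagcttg
Of 10 class II genes listed, 7 had a window by symbol, and 3 of these held the letters on either strand, the other being H2-Oa. Among all 32851 windows of this length 1346 (4.10%) held them. The windows of H2-DMb1 and H2-DMb2 held gtgattgg and that of H2-Ob ttgattgg, which differ from the marked letters at the first base. Such near matches were not counted over all windows. A match describes letters and is no evidence that a factor is bound there.

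The gated share was 2.12% in fresh 10x 1 (exact binomial 95% interval 1.54 to 2.84%), 3.58% in fresh 10x 2 (2.80 to 4.51%) and 2.68% in stored 10x (2.20 to 3.22%). On BD Rhapsody it was 4.43% in BD 1 (3.79 to 5.13%) and 3.63% in BD 2 (3.09 to 4.24%). These intervals cover counting error only. Both BD Rhapsody shares lay above the 10x shares, but the fresh 10x replicates alone spanned 2.12 to 3.58%, and the intervals of BD 1 and BD 2 overlapped that of fresh 10x 2. In these sums and shares, fewer macrophages and fewer captured macrophage transcripts cannot be told apart. Few cells sat at the edge of the gate: 0, 2, 3, 4 and 5 gated cells of the 5 libraries, in the order given, had 10 to 14 C1q UMIs, and 2, 0, 7, 4 and 10 cells just outside it had 5 to 9. The keratin condition removed 3, 14, 21, 16 and 12 further cells that passed on C1q.

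**Figure D1:**
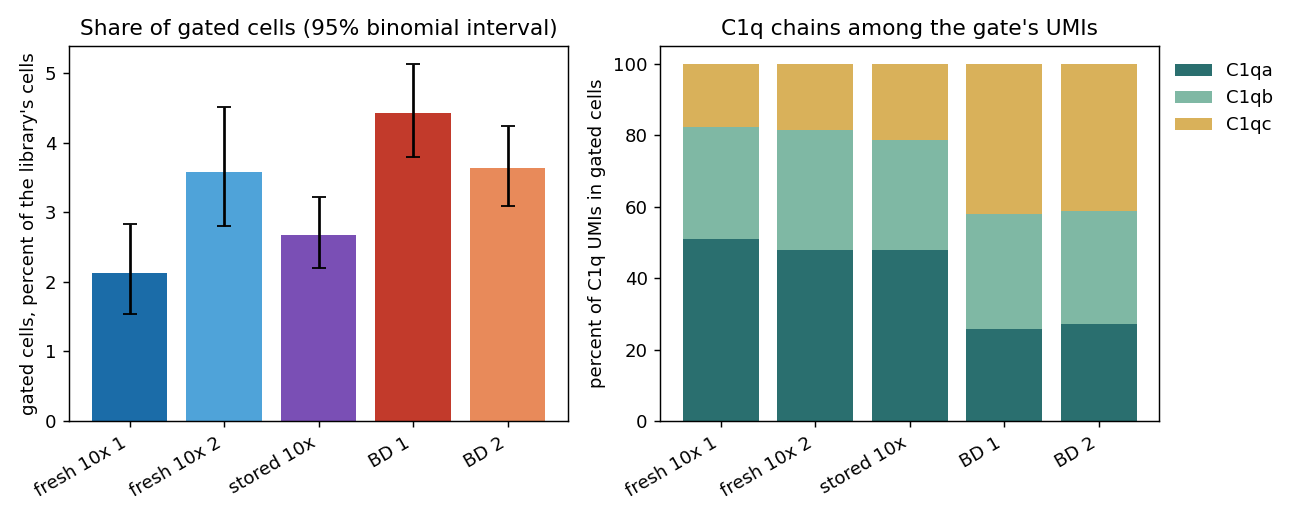
Left, gated cells as a percentage of the cells of each library, with exact binomial 95% intervals as bars; right, the percentage of C1q UMIs of gated cells that came from each chain. Shares run from 2.12% to 4.43%, and C1qa leads on 10x while C1qc leads on BD Rhapsody.

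Gated cells held 78.5 to 93.9% of all C1q UMIs of a library. The 3 chains were found together in all gated cells of each 10x library, in 166 of 167 in BD 1 and in 151 of 152 in BD 2. Their proportions differed by platform, although the chains assemble in equal parts in the protein. C1qa gave 51.0%, 47.8% and 47.9% of C1q UMIs in fresh 10x 1, fresh 10x 2 and stored 10x against 25.7% in BD 1 and 27.0% in BD 2. C1qc gave 17.8%, 18.6% and 21.2% against 42.0% and 41.1%, and C1qb stayed between 30.9% and 33.6% everywhere. The sum used for gating was thus made up of different chains on each platform.

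The label was checked with transcripts that the gate did not use. At least 3 of Csf1r, Adgre1, Mrc1 and Apoe were detected in 59.1%, 56.5% and 67.3% of gated 10x cells and in 85.6% and 82.9% of gated BD Rhapsody cells, against 0.197 to 0.666% of the other cells, and 0 gated cells lacked all of them. Because detection depends on depth, cells were compared at 2000 UMIs, which left out 2 gated cells of fresh 10x 2 and 9 of stored 10x. At that depth the expected share of cells with a UMI was computed. Csf1r, the receptor for the growth factor that macrophages need, was at 62.8%, 62.3% and 73.7% of gated 10x cells and in 92.7% and 95.03% of gated BD Rhapsody cells, with 0.0595 to 0.629% in keratin-positive cells as the background level. Adgre1 (F4/80) was at 27.6 to 39.2% and Mrc1, the mannose receptor, at 5.37 to 18.7%. Of genes known from resident macrophages, Selenop, a selenium carrier, was at 68.2 to 91.3% (14.4 to 36.9% in keratin-positive cells) and Stab1, a scavenger receptor, at 25.2 to 33.4%, while Cd163, Lyve1 and Timd4 stayed at or below 1.29%. The general macrophage transcripts were thus common in the gated cells, while resident-type transcripts ranged from common to rare.

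Some gated cells also carried transcripts of other cell types. At least 3 UMIs from 50 markers of other lineages were found in 15, 21 and 36 gated cells of fresh 10x 1, fresh 10x 2 and stored 10x and in 100 and 45 of BD 1 and BD 2, and such cells were deeper, with a median of 6823.5 to 14027.5 UMIs against 5044 to 8557 in the rest. T-cell markers summed to 436 and 220 CPM (UMIs scaled to a total of 1000000) in the gated cells of fresh 10x 1 and 2, 28.9 after storage, and 67.4 and 71.9 on BD Rhapsody. Cd4 alone gave 64.7 and 33.2 CPM of these sums in BD 1 and BD 2, where Cd3g had 0 and 10 UMIs. The BD Rhapsody sums are therefore weak evidence of T-cell transcripts. Fibroblast markers summed to 108, 869, 2150, 154 and 2077 CPM in the same order, and NK-cell markers to 84.5 and 66.2 in fresh 10x and 0 in stored 10x. No doublet caller was run, and barcodes shared between libraries numbered 1, 1 and 5 among 10x pairs and 24 between the BD libraries, with 0 gated in both. Results that rest on cells with these markers are given with and without them. That removal was uneven: it took 59.9% of the gated cells of BD 1 against 29.6 to 34.1% of those of the other libraries. Carrying these markers does not by itself mark another lineage. Of the 6 neutrophil markers 1 had a log2 ratio of gated to other cells of at least 1 in all 5 libraries. The part of depth in the removal was not tested.

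Depth differed between the gated cells of the platforms. Library totals ran from 29166129 to 59957945 UMIs. The median gated cell held 6553, 5592 and 5643 UMIs on 10x and 12204 and 8566.5 on BD Rhapsody. Relative to the median of the other cells of the same library this was 0.630, 0.482 and 0.609 on 10x and 0.977 and 0.958 on BD Rhapsody. On 10x the gated cells were therefore shallow for their library, whereas on BD Rhapsody they were about as deep as the rest. The median mitochondrial percentage of gated cells was 5.32 to 5.95 on 10x and 8.97 and 9.96 on BD Rhapsody, below the 6.17 to 7.22 and the 15.4 and 20.2 of the other cells.

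Against the other cells of the same library, gated cells were richest in transcripts for lipid carriage, class II presentation, lysosomal proteolysis and chemokines. As a description, 660 of 9616 genes (6.86%) had a log2 ratio of at least 1 in all 5 libraries, with 10 CPM added to both sides, which understates the ratio of low genes. Apoe, the lipid carrier, stood at 58511, 46780 and 35935 CPM in gated cells of fresh 10x 1, fresh 10x 2 and stored 10x and at 17060 and 18995 CPM in BD 1 and BD 2, with log2 ratios of 6.78 to 8.09. Ctss, the cathepsin that trims the class II invariant chain, stood at 3857, 3375, 4248, 6403 and 6703 CPM with ratios of 6.70 to 7.78. Cd74, which encodes that invariant chain, reached 20637, 21283, 28069, 16360 and 23154 CPM. Each of these transcripts was far above the other cells in every library, and the least ratio among the 20 leading genes was 5.27, for Csf1r.

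The remaining leading genes fell into the same roles. H2-Aa and H2-Ab1 encode the class II chains, Lyz2 lysozyme, Cybb the oxidase subunit of phagocytes, and Mpeg1 a pore-forming protein of phagosomes. Tyrobp and Fcer1g encode adaptors that signal for activating receptors, among them Trem2, a lipid receptor that was also in this group. Ccl3 and Ccl4 encode chemokines that attract leukocytes, Il1b a secreted cytokine, and Cx3cr1 the fractalkine receptor. Ms4a7, Rgs1, Laptm5 and Aif1 completed the set, with log2 ratios of at least 5.28 in every library.

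**Figure D2:**
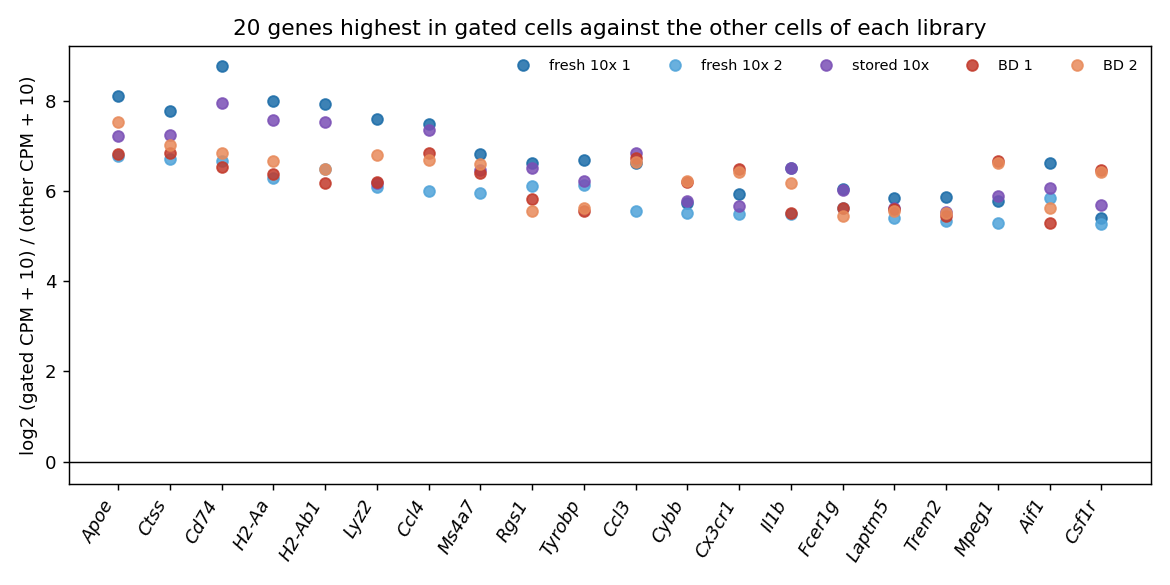
Log2 ratio of gated to other cells (10 CPM added to both) for the 20 genes with the highest minimum over the 5 libraries, one point per library. All points lie above 5, and Apoe, Ctss and Cd74 have the highest minima, at 6.78, 6.70 and 6.53.

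Lists of macrophage genes were set beside that 6.86%. All 14 general macrophage genes, 9 of 10 class II genes, 14 of 16 lysosomal genes, 10 of 13 Fc and phagocytic receptors, 14 of 20 chemokines and cytokines and 7 of 10 lineage transcription factors met the description. Spi1, which encodes the lineage factor PU.1, stood at 494, 374, 445, 453 and 489 CPM. The factors that did not meet it were Runx1, Cebpb and Nr1h3. Among genes known from microglia 8 of 10 met it, including Tmem119 at 348, 312, 375, 257 and 213 CPM, while Sall1 had 0 UMIs in every gated sum. Only 5 of 14 scavenger and resident-type genes and 5 of 14 lipid-handling genes met it, and 0 of 12 interferon-stimulated, 0 of 12 cell cycle and 0 of 14 glycolysis genes did.

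A few genes often named for tumour macrophages were not concentrated in these cells. Arg1, arginase, was expected in 0 to 1.80% of gated cells at 2000 UMIs against 6.82 to 10.3% of keratin-positive cells. Spp1, osteopontin, was expected in 58.3%, 53.0%, 68.9%, 32.0% and 29.1% of gated cells against 66.3%, 58.1%, 72.2%, 49.7% and 42.9% of keratin-positive cells. Both shares in gated cells lay below the share in keratin-positive cells of the same library. Since those cells also hold transcripts of both genes, the shares do not tell expression in gated cells from free RNA.

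The gated cells were not uniform. Summed class II transcripts had a median of 435, 341 and 456 UMIs per 10000 in fresh 10x 1, fresh 10x 2 and stored 10x and of 491 and 627 on BD Rhapsody. The cell at the 90th percentile had 13.1 to 71.1 times the level of the cell at the 10th percentile, depending on the library. For Apoe, which the gate did not use, that ratio was 6.15 to 13.2, below that of class II in each of the 5 libraries. The ratios were closest in fresh 10x 2, at 13.1 for class II and 6.44 for Apoe.

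Cells with more class II transcripts had fewer lipid-handling transcripts. Across cells within a library, Spearman's rho between summed class II genes and the lipid-handling list without Apoe was -0.63 over 44 cells, -0.40 over 69, -0.48 over 107, -0.41 over 167 and -0.34 over 152, in the order fresh 10x 1, fresh 10x 2, stored 10x, BD 1 and BD 2. The cells of a library share its preparation and a common total to which both sums are scaled, so this is a description. Class II was also lower in deeper cells, with rho against total UMIs of -0.33, -0.12, -0.09, -0.39 and -0.26, and the part of depth in the relation was not tested. The lipid-handling list also holds transcripts found in tumour cells. At 2000 UMIs Fabp5 was expected in 17.9 to 24.3% of gated cells against 23.6 to 38.8% of keratin-positive cells. Lgals3 was at 48.5 to 66.3% against 18.9 to 28.7%. The part of tumour or free RNA in the relation was not tested. C1q and class II rose together more weakly, with rho of 0.16 to 0.38.

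**Figure D3:**
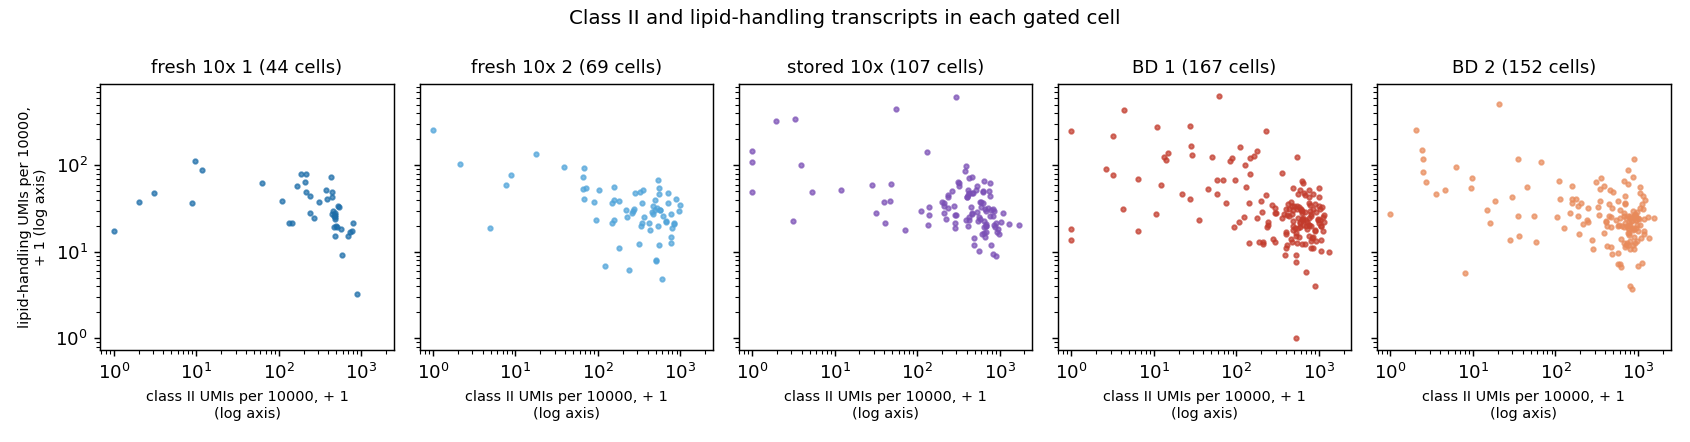
Summed class II UMIs per 10000 (x) against summed lipid-handling UMIs per 10000 without Apoe (y) in each gated cell, 1 added to both, log axes, one panel per library. Each panel slopes downward with wide scatter, with Spearman rho from -0.63 to -0.34.

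The first tested comparison asked how the gated cells differ by platform, with 3 10x libraries against 2 BD Rhapsody libraries. In edgeR's quasi-likelihood test 2497 of 7136 genes (35.0%) passed an adjusted p of 0.05, 1120 (15.7%) higher and 1377 (19.3%) lower on BD Rhapsody, and the median log2 change of all genes was 0.01. Groups did not overlap for 2364 of the 2497 called genes, and 1704 of these 2497 changed by at least 2-fold. Neither condition was counted over all 7136 genes, so these counts have no background to be read against. With the BD 1 library left out 1084 genes passed, and with BD 2 left out 1095. Storage is mixed within the 10x side. BD 1 against fresh 10x alone gave 1423 calls, and 1309 of these were among the 2497.

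The genes with the largest rises in gated cells on BD Rhapsody included Plau, Nlrp3, Pim1 and Mt2. Plau, the urokinase plasminogen activator, stood at 74.4, 64.0 and 88.3 CPM in fresh 10x 1, fresh 10x 2 and stored 10x and at 757 and 882 in BD 1 and BD 2. Both BD values were over all 10x values, a log2 change of 3.14 ± 0.23 (SE; edgeR adjusted p = 4.98e-05). Nlrp3, the inflammasome sensor, stood at 77.7, 47.0, 145, 566 and 733 CPM (log2 change 2.52 ± 0.36, edgeR adjusted p = 0.000875). Pim1, a cytokine-induced kinase, stood at 179, 105, 326, 1080 and 1184 CPM (2.16 ± 0.36, edgeR adjusted p = 0.00172). For Nlrp3 and Pim1 the stored library was the highest of the 10x libraries and still below both BD libraries. Mt2, a metallothionein, stood at 30.4, 23.5, 148, 839 and 605 CPM (3.0 ± 0.53, edgeR adjusted p = 0.00229). Without cells carrying other-lineage markers the Mt2 levels in BD 1 and BD 2 were 133 and 359 CPM, against 12.1, 30.7 and 83.6 on 10x, and the call held. The other cells shifted by platform as well. Plau stood there at 5.33, 3.59 and 3.91 CPM on 10x against 40.4 and 24.9 on BD Rhapsody. Mt2 stood there at 74.0, 94.5 and 278 against 1157 and 1355. The change of gated relative to other cells, tested further below, did not pass for Plau, Nlrp3, Pim1 or Mt2.

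Other genes with the largest rises on BD Rhapsody were less evenly supported. Sept2 had 2, 2 and 1 UMIs in the 10x gated sums and 550 and 319 in BD Rhapsody, and its level in the other cells differed by platform to a like degree (4.88 to 6.60 CPM against 218 and 196). Vegfa, the vessel growth factor, stood at 30.4, 6.40 and 32.0 against 112 and 138 CPM (2.14 ± 0.38, edgeR adjusted p = 0.00233). Il1rn, the interleukin 1 receptor antagonist, stood at 23.7, 2.13 and 128 against 344 and 299 CPM, and its adjusted p of 0.0276 in edgeR was 0.298 in DESeq2, 0.0559 without BD 1 and 0.0735 without fresh 10x 1. Adam8, Hal, Khsrp and Fnip2 also rose, and the log2 changes of Adam8 and Hal fell from 2.71 and 2.34 to 0.74 and 0.18 without cells carrying other-lineage markers, where neither passed. Hal was also lost without BD 1 (edgeR adjusted p = 0.151) and without fresh 10x 2 (0.0780). For Gpnmb the fresh 10x libraries had 0 UMIs, 77.8% of the BD 2 UMIs came from a single cell, and the call was lost without BD 2 (edgeR adjusted p = 0.287) and without either fresh library (0.0808 and 0.120).

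The genes with the largest falls on BD Rhapsody included Malat1 and Tgfb1. Malat1, a nuclear noncoding RNA, stood at 10104, 15530 and 21034 CPM on 10x and at 1544 and 2206 on BD Rhapsody (log2 change -3.34 ± 0.32, edgeR adjusted p = 0.000124). All 4 nuclear RNAs tested fell, with a median of -2.40, beside 19.3% lower among all genes. Tgfb1, which encodes a cytokine that restrains inflammation, stood at 284, 226 and 286 against 64.7 and 51.5 CPM (-2.48 ± 0.23, edgeR adjusted p = 0.000104). Ndufa11 and Ndufb9, subunits of respiratory complex I, Rex1bd, Mrpl30, Kcnq1ot1, Ubb and Nenf fell by log2 values from -3.25 to -2.55. Ubb has near-identical copies, so how its reads were divided between them is uncertain.

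Most 10x UMIs of Mgp and Postn, secreted matrix proteins, came from single cells in 2 libraries. A single cell gave 97.4% of the Mgp UMIs of fresh 10x 2 and another 94.2% of those of stored 10x, and for Postn these shares were 90.6% and 86.8%. Without cells carrying other-lineage markers Mgp stood at 18.2, 10.2 and 44.4 CPM on 10x and 15.6 and 8.13 on BD Rhapsody, values that overlap. Postn without those cells stood at 24.3, 13.6 and 13.1 CPM against 1.56 and 1.16, lower levels that still did not overlap. These levels rest on few UMIs: all gated cells of fresh 10x 1 held 6 Postn UMIs and those of BD 1 held 4.

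General macrophage genes moved in both directions. Of 14 tested, 6 rose and 4 fell, with a median of 0.37, beside 15.7% higher and 19.3% lower among all genes. Csf1r rose from 483, 497 and 710 CPM to 1810 and 1789 (log2 change 1.38 ± 0.21, edgeR adjusted p = 0.0012), and Cd68, a lysosomal membrane protein, from 308, 337 and 527 to 1227 and 1087 (1.26 ± 0.24, edgeR adjusted p = 0.00345). Apoe fell (-1.68 ± 0.21, edgeR adjusted p = 0.000398), as did Tyrobp, Aif1 and Fcgr1. The last 3 calls were lost without BD 1 (edgeR adjusted p = 0.0593, 0.156 and 0.186), and that of Fcgr1 also without BD 2 (0.113). Lyz2 stood at 5906, 5311, 4979, 7067 and 7267 CPM and did not pass, with an edgeR adjusted p of 0.607. Relative to the other cells, tested further below, 0 of these 14 genes passed as higher and 1, Tyrobp, as lower (edgeR adjusted p = 0.0263). Csf1r and Apoe did not pass there (0.735 and 0.892).

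Lysosomal genes split. Of 16 tested, 6 rose and 4 fell, with a median of -0.12, beside 15.7% higher and 19.3% lower among all genes. Psap, the saposin precursor, rose from 2508, 2528 and 3472 to 7743 and 7146 CPM, and Grn, progranulin, from 494, 470 and 799 to 1782 and 1626. In the other direction Ctsd, an aspartic protease, fell from 2816, 1906 and 1759 to 1012 and 954 CPM, and Ctsz from 1886, 1612 and 1602 to 828 and 683. The log2 changes were 1.10 ± 0.18 for Psap and 1.23 ± 0.24 for Grn against -1.43 ± 0.24 for Ctsd and -1.47 ± 0.19 for Ctsz. No value of one platform overlapped the other for these 4 genes.

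Receptors for debris and complement moved mostly upward. Of 13 Fc and phagocytic receptors 6 rose and 1, Fcgr1, fell, with a median of 0.53, beside 15.7% higher and 19.3% lower among all genes. Itgam, the complement receptor chain CD11b, stood at 67.6, 76.8 and 119 CPM on 10x and 362 and 330 on BD Rhapsody (1.64 ± 0.24, edgeR adjusted p = 0.00101). C5ar1, the C5a receptor, stood at 74.4, 96.1 and 143 against 374 and 371 (1.5 ± 0.25, edgeR adjusted p = 0.00192). Of 10 scavenger and resident-type genes tested 4 rose and 0 fell, a called share near the 35.0% of all genes. Msr1, scavenger receptor A, stood at 64.2, 93.9 and 104 against 543 and 341 CPM, and Cd36, a lipid scavenger receptor, at 0, 4.27 and 3.05 against 120 and 55.0.

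Class II genes gave a share near the background of the comparison, with 2 rising and 2 falling of 9 and a median of 0.14. H2-Aa, whose promoter is shown above, rose from 4770, 4521 and 6574 to 11245 and 14068 CPM (0.97 ± 0.20, edgeR adjusted p = 0.00538), a call lost without BD 2 (0.77, edgeR adjusted p = 0.0517). H2-DMb1, a chain of the peptide loading factor, fell from 318, 517 and 442 to 196 and 207 (-1.38 ± 0.24, edgeR adjusted p = 0.00237). H2-Eb1 stood at 77.7, 98.2, 116, 133 and 108 CPM and did not pass. Iron genes mostly fell, 5 of 9 with 1 rising and a median of -0.69, led by Blvrb and the ferritin chains Ftl1 and Fth1. Over all genes 19.3% fell and 15.7% rose.

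Of 18 chemokine and cytokine genes 4 rose and 1 fell, and of 14 immediate early genes 3 rose and 3 fell, beside 35.0% called among all genes. Tnf stood at 220, 297 and 547 CPM on 10x and 1454 and 1364 on BD Rhapsody (1.68 ± 0.31, edgeR adjusted p = 0.00293). Zfp36, whose product destabilises such messages, stood at 896, 909 and 1160 against 3979 and 4081 (1.73 ± 0.18, edgeR adjusted p = 0.000197). Nr4a1 rose from 213, 156 and 379 to 1265 and 1308. Fos stood at 2130, 2532, 2362, 2131 and 2486 CPM, values that overlap, so the immediate early genes did not move as a block.

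**Figure D4:**
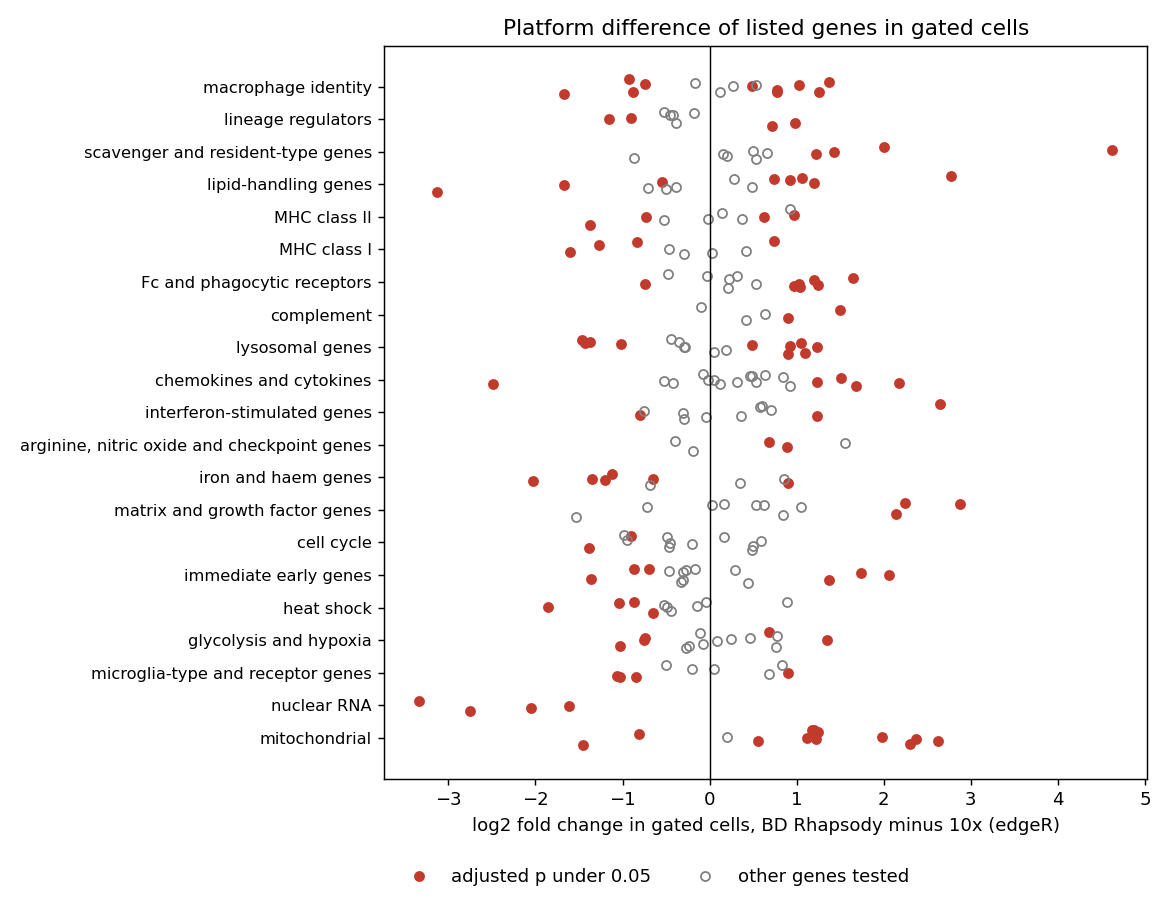
Log2 change of each listed gene in gated cells, BD Rhapsody minus 10x, by list (edgeR); filled points passed an adjusted p of 0.05 and the line marks 0. Nuclear RNA lies to the left, at a median of -2.40, mitochondrial genes to the right, at 1.20, and most other lists straddle 0.

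Ribosomal protein and mitochondrial transcripts moved as classes. Of 93 ribosomal protein names tested 73 fell and 5 rose on BD Rhapsody, with a median of -1.60, and their share of gated UMIs was 16.2%, 15.6% and 15.8% on 10x and 6.45% and 6.44% on BD Rhapsody. In the other cells that share was 19.7%, 19.8% and 21.1% against 12.3% and 12.7%. Of 13 mitochondrial genes 10 rose and 2 fell, with a median of 1.20, and their share was 5.61%, 7.07% and 6.43% in gated 10x cells and 9.16% and 11.2% on BD Rhapsody. Over all genes 15.7% rose and 19.3% fell. The part of the ribosomal and mitochondrial shares in the changes of single genes was not tested.

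The platform difference of the gated cells was then set against that of the other cells of the same libraries. This test asked whether the ratio of gated to other cells changed between platforms. edgeR with the library as a block called 205 of 14850 genes (1.38%). Of these 59 (0.397%) were higher and 146 (0.983%) lower in gated cells on BD Rhapsody, 1786 passed an unadjusted p of 0.05, and the median of all genes was 0.08. With DESeq2 size factors 299 genes passed and 13.4% of them were higher against 28.8% here, with the median of all genes at -0.07. Without fresh 10x 2 the count was 97, without BD 1 it was 112, and without stored 10x it was 392. This test uses the same libraries as the platform comparison, and a gene's values in both stand side by side here. Of the 2497 platform calls, all tested here, 130 were also called in this comparison. Where cells carrying other-lineage markers were left out of the gated sums, this test counted them among the other cells. Relative changes under that setting therefore also reflect a changed other side, and the 2 effects were not separated.

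Genes lower in gated cells relative to the rest differed in how steady they were. With a gate of at least 5 C1q UMIs 38 of the 47 genes followed in this comparison, higher or lower, no longer passed. AW112010, an interferon-responsive transcript, stood at 348, 267, 137, 76.7 and 60.7 CPM in gated cells and at 24.4 to 38.8 in the other cells, a relative log2 change of -1.73 ± 0.26 (edgeR adjusted p = 0.00261). With cells carrying other-lineage markers left out its gated levels were 128, 174, 99.3, 75.1 and 55.8 CPM. The relative change, with those cells counted among the other cells, was -1.03 (edgeR adjusted p = 0.0297). Lst1, a leukocyte membrane protein, stood at 362, 448, 847, 264 and 316 CPM in gated cells, while the other cells had 1.63 to 8.74 (-1.46 ± 0.25, edgeR adjusted p = 0.00569). Both calls held under every alternative run. Ighm, an immunoglobulin heavy chain, had a relative change of -1.39 ± 0.24 and Gsn, an actin-severing protein, of -1.34 ± 0.24, and the Gsn call was lost without BD 1 (edgeR adjusted p = 0.0990). Gated Ighm levels without cells carrying other-lineage markers overlapped, at 194, 157 and 204 CPM on 10x against 189 and 178 on BD Rhapsody. B and plasma cell markers in the other cells summed to 1.28, 0.541 and 183 CPM on 10x against 1034 and 454. Their part in the Ighm change was not tested. Cd300a, an inhibitory receptor, and H2-Ab1 had -1.32 ± 0.32 and -1.32 ± 0.31 (edgeR adjusted p = 0.0435 and 0.0384), and both calls were lost without fresh 10x 1 (0.0995 and 0.0726), that of Cd300a also without BD 1 (0.177) or fresh 10x 2 (0.0816). Gated Cd300a levels without cells carrying other-lineage markers also overlapped, at 346, 204 and 172 CPM on 10x against 183 and 166 on BD Rhapsody. For H2-Ab1 the gated level was not lower on BD Rhapsody (10762 and 12528 CPM against 6193 to 8506): the other cells rose from 15.6, 72.4 and 36.1 to 138 and 131. Of the 101 ribosomal protein names tested 42 were lower and 0 higher, and of the 13 mitochondrial genes 6 were lower, beside 0.983% lower among all genes.

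Genes relatively higher in gated cells on BD Rhapsody differed in how widely their UMIs were spread over cells. Ctsl, a lysosomal protease, stood at 203, 162, 221, 744 and 262 CPM (2.05 ± 0.26, edgeR adjusted p = 0.00129), but 38.4% of its BD 1 UMIs and 50.9% of its BD 2 UMIs came from a single cell each. Without cells carrying other-lineage markers it stood at 219, 143 and 199 against 95.4 and 77.9 CPM, so the platform difference turned from 1.05 to -1.40. The relative one, with those cells counted among the other cells, turned to -0.36. The platform call of Ctsl was also lost without BD 1 (0.20), fresh 10x 1 (1.09) or fresh 10x 2 (0.93). Cxcl10, an interferon-induced chemokine, was found in 70 and 64 gated cells of BD 1 and BD 2. Its relative change was 1.68 ± 0.37, and 0.04 with marker-carrying cells counted among the other cells. Its gated levels without them were 358, 331 and 507 CPM on 10x against 651 and 550 on BD Rhapsody. The Cxcl10 call was lost without fresh 10x 2 (edgeR adjusted p = 0.0973). Hal had 2.15 ± 0.52 with an edgeR adjusted p of 0.0435, turning to -0.47 with marker-carrying cells counted that way. Its call was lost without BD 1 or fresh 10x 2. Gdf15, a stress-induced cytokine, stood at 60.8, 72.6, 65.5, 207 and 150 CPM (1.63 ± 0.29, edgeR adjusted p = 0.00609). A single cell per library gave 50%, 76.5% and 51.2% of its 10x UMIs, and 16.6% and 25% in BD 1 and BD 2. Apold1 had 4.01 ± 0.80 from 3, 7, 21, 137 and 232 UMIs, a call lost without fresh 10x 2. Fnip2, found in 73 and 64 gated BD cells, had 1.52 ± 0.37, lost without fresh 10x 2 or either BD library.

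Lipid-handling genes also depended on which cells and libraries were counted. Of 14 tested in this comparison 4 were relatively higher and 0 lower: Fabp5, a fatty acid binding protein, Abca1 and Abcg1, cholesterol exporters, and Lgals3, a galectin. Over all genes 0.397% were higher and 0.983% lower. Fabp5 had 1.52 ± 0.27 and Lgals3 0.86 ± 0.19. With cells carrying other-lineage markers counted among the other cells these were -0.25 and -0.52. Abcg1 stood at 101, 72.6, 64.0, 203 and 231 CPM, with a relative change of 1.37 ± 0.25. That change was 0.59 and did not pass with marker-carrying cells counted that way. All 4 calls were lost when single libraries were left out: Fabp5 and Lgals3 without BD 1, Lgals3 also without fresh 10x 2, Abcg1 without BD 2, and Abca1 without BD 1, BD 2 or fresh 10x 2.

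Storage was compared within 10x, with 1 stored library against 2 fresh ones, so the spread comes from the fresh pair alone (1 residual degree of freedom). The fresh pair differed beyond sampling noise, its counts giving a chi-square of 2.93 for each degree of freedom over 4460 genes. edgeR called 140 of 8046 genes (1.74%), 105 (1.30%) higher and 35 (0.435%) lower after storage, with 717 at an unadjusted p under 0.05 and a median of -0.02 over all genes. The calls depended on the settings: DESeq2 made 8, and requiring at least 10 C1q UMIs per 10000 or a keratin sum under 4 left 0, although the log2 changes of the signalling genes below stayed close. They are therefore given beside 69 further gated cells of the same fresh samples, which are in a pooled matrix and entered no fit.

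Inflammatory signals were higher in gated cells of the stored library. Of 19 chemokine and cytokine genes tested 8 rose and 1 fell, with a median of 0.90, beside 1.30% higher and 0.435% lower among all genes. Ccl3 stood at 1095 and 651 CPM in fresh 10x 1 and 2, at 828 in the further fresh cells and at 1759 after storage (log2 change 1.01 ± 0.22, edgeR adjusted p = 0.000803). Ccl4 stood at 2109, 1405, 1899 and 3298 (0.90 ± 0.18, edgeR adjusted p = 0.000357), and Cxcl2, a neutrophil chemokine, at 1680, 1560, 1823 and 3198 (0.97 ± 0.19, edgeR adjusted p = 0.000156). For each of these the stored value lay above all 3 fresh values. Without cells carrying other-lineage markers the changes were 0.87, 0.82 and 1.21 and still passed.

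The same order held for other signalling genes. Tnf stood at 220, 297, 277 and 547 CPM (1.06 ± 0.26, edgeR adjusted p = 0.00493), and Il1a at 199, 113, 150 and 341 (1.15 ± 0.30, edgeR adjusted p = 0.0155). Cd83, an activation marker, stood at 450, 175, 218 and 726, Nr4a1 at 213, 156, 137 and 379, and Egr1 at 426, 604, 582 and 1020. Hk2, hexokinase, stood at 67.6, 38.4, 66.7 and 198 (1.95 ± 0.35, edgeR adjusted p = 3.08e-05), or 1.42 without fresh 10x 2. These passed again without cells carrying other-lineage markers. Il1b stood at 1910, 698, 970 and 2301, and its call was lost without those cells. Leaving out fresh 10x 2, which permits no test, gave 0.68 for Ccl3, 0.68 for Cd83 and 0.27 for Il1b. Of 14 immediate early genes 2 rose, Egr1 and Nr4a1, and 0 fell.

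**Figure D5:**
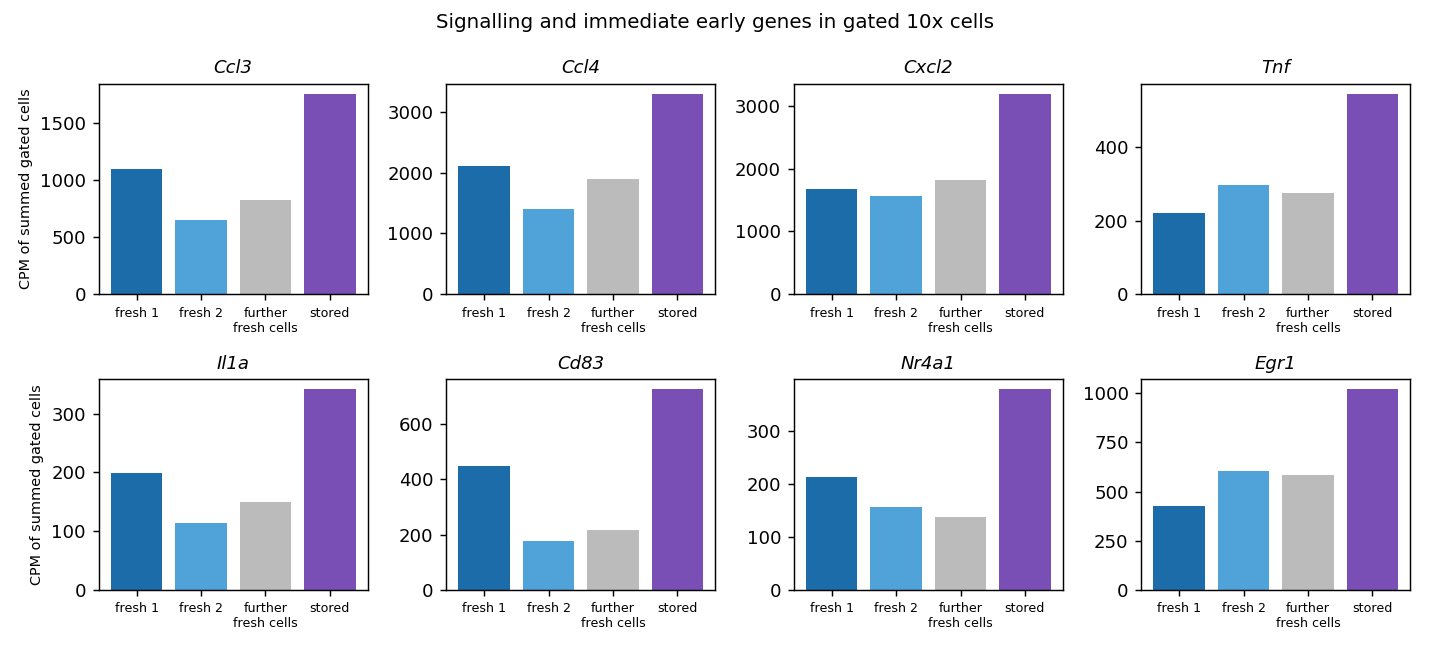
CPM of summed gated cells for signalling and immediate early genes in fresh 10x 1, fresh 10x 2, 69 further fresh gated cells of the same samples (grey, in no fit) and stored 10x; bars start at 0 and have no error bars because each is 1 sum. The stored bar is the tallest in the panels of Ccl3 (1759), Ccl4 (3298), Cxcl2 (3198) and Tnf (547).

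For several other storage calls the further fresh cells were close to or above the stored value. Ccl6 stood at 60.8 and 61.9 CPM in fresh 10x, 402 in the further fresh cells and 256 after storage. Spp1 stood at 696, 918, 1966 and 2033, and Mmp12, macrophage elastase, at 60.8, 49.1, 247 and 219. Among the lower genes Apoe fell by 0.56 ± 0.10 (edgeR adjusted p = 1.92e-05), from 58511 and 46780 with 57161 in the further cells to 35935. Hspa1a, a heat shock chaperone, stood at 497, 1802, 1392 and 553, so its fall rested on fresh 10x 2, without which the change was 0.15. Class II genes H2-Aa and Cd74 passed at 0.49 ± 0.14 and 0.41 ± 0.11. Their changes were 0.42 and 0.34 without cells carrying other-lineage markers, and neither passed then (edgeR adjusted p = 0.420 and 0.513).

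The storage genes with the largest fitted changes came from few cells. Clec3b, Dpt, Dcn, Sfrp2, Serpina3n and Meg3 are mostly transcripts of stroma, and a single cell gave 81.8%, 62.8%, 60.5%, 89.1%, 48.0% and 72.2% of their stored UMIs. All 59 stored Gpnmb UMIs lay in 3 cells, and the stored Atp6v0d2 UMIs in 5. Def8, with 11 UMIs in 11 stored cells, and Il1rn, with 84 UMIs in 20 cells, were more spread. The lower genes Nkg7, Ncr1, Trbc1, Trbc2, Cd3g, Xcl1, Ltb, Itgb7, Ikzf2 and Krt83 include receptors and effectors of T and NK cells. Nkg7 had 26 and 32 UMIs in 5 and 4 fresh cells and 0 in the stored library. Cd3g had 51 and 30 in 8 and 6 cells and 1 after storage. Without cells carrying other-lineage markers Nkg7, Trbc1, Trbc2, Xcl1 and Krt83 were at 0 CPM in both fresh libraries; Trbc2, Cd3g and Ncr1 are themselves among those markers. The T-cell markers given above moved in the same direction, and their part in these calls was not tested beyond that removal.

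BD 1 and BD 2 are single libraries and the labels of BD 2 conflict, so their values are given with no test. Ratios of BD 2 to BD 1 in CPM carry exact 95% intervals that cover counting error only. Arg1 had 165 UMIs in BD 1 and 4 in BD 2, a ratio of 0.0383 (0.0103 to 0.1), but 84.2% of the BD 1 UMIs lay in a single cell. Ccl17, a chemokine for CCR4, had 221 UMIs in 3 BD 1 cells and 0 in BD 2, at least 46.6-fold higher in BD 1 against a floor of 3 counts in BD 2. A single cell held 84.2% of these Ccl17 UMIs. Cenpf, a mitotic protein, had 90 UMIs in 22 BD 1 cells and 7 in 6 BD 2 cells, and Prr11 and Ccnb1 went the same way, with 61 and 53 UMIs against 3 and 4. Higher in BD 2 were Retnla, Col5a1, Mmp3, Sfrp2 and Rarres2, each with 94.5% or more of its BD 2 UMIs in a single cell. The log2 CPM of 7807 genes correlated across genes at 0.974 between BD 1 and BD 2, at 0.922 between the fresh 10x libraries and at 0.796 to 0.853 between platforms; genes are not independent replicates.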

How the data were processed

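Single-cell RNA was measured in 5 libraries of PyMT mammary tumours. The authors deposited 8 matrices of raw UMI counts per gene and cell, whole numbers with no normalisation per the file headers. Cell Ranger 3.0.1 and mm10 are named in the submitters' processing notes, with no role given, and the counting of the BD Rhapsody libraries is not given in the sources used here. How the authors selected cells before deposit is not stated there. Library totals ran from 29166129 to 59957945 UMIs, with gated sums of 295824 to 2241345. Symbols were merged across spellings, leaving 41028 names, of which 20205 had UMIs on both platforms. The pooled fresh matrix and the subsets of BD 1 entered no main result.

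Gated cells were summed per library, scaled to CPM for display, and tested with edgeR 4.0.16 (quasi-likelihood, TMM, filterByExpr) in R 4.3.3, with DESeq2 1.42.0 as an alternative and Benjamini-Hochberg adjustment over all genes tested. Ratios of gated to other cells had 10 CPM added. Shares at 2000 UMIs are the chance, per cell, of drawing a UMI without replacement. The fits were tested on simulated data. The members and gene lists were chosen with earlier results of these data known. Genes were named by rule: the 20 with the highest minimum ratio at 100 CPM or more; among calls without overlap, the 12 highest and 12 lowest platform changes, 6 relative changes each way (both at a mean of 100 CPM or more on the higher side) and up to 10 storage changes each way, leaving out ribosomal, mitochondrial and unnamed models; the 5 highest and lowest BD ratios at 50 UMIs or more; and members of the lists. A gene that the rule names is not reported here. Alternatives were other gates, low-count filters, scaling, thinning to 2000 UMIs, removing cells with other-lineage markers, and leaving out each library. The removal took such cells out of the gated sums, and comparisons with the other cells then counted them among the other cells. Python 3.11.15 with numpy 2.4.6, scipy 1.17.1 and pandas 2.3.3 was used.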

Additional observations from a re-analysis of the deposited data

Results flagged for a closer look

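The difference between platforms differed between gated cells and the other cells of the same libraries for 205 genes, by edgeR's test of the interaction itself. Among the genes named by rule, the relative log2 change was 4.01 for Apold1, 2.15 for Hal, 2.05 for Ctsl, 1.68 for Cxcl10, 1.63 for Gdf15 and 1.52 for Fnip2, all higher in gated cells on BD Rhapsody. It was -1.73 for AW112010, -1.46 for Lst1, -1.39 for Ighm, -1.34 for Gsn, -1.32 for Cd300a and -1.32 for H2-Ab1. No explanation was tested. Without cells carrying other-lineage markers Apold1 levels in gated cells were 12.1, 13.6 and 47.0 CPM on 10x against 75.1 and 196 on BD Rhapsody. Its relative change, with those cells counted among the other cells, still passed. Counted the same way, the changes were 1.45 for Gdf15, 1.24 for Fnip2, -1.03 for AW112010, -1.76 for Lst1, -1.32 for Ighm, -1.34 for Gsn, -1.75 for Cd300a and -1.13 for H2-Ab1. That of Fnip2 no longer passed (edgeR adjusted p = 0.334), and the others still did. For Hal, Ctsl and Cxcl10 they stand in the text above.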

How the results depend on the processing

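The platform count of 2497 was 1423 for BD 1 against fresh 10x, 1638 with DESeq2's Wald test, 1038 after thinning to 2000 UMIs, and 1084 to 2415 with one library left out. The interaction count of 205 was 27 at C1q of at least 5, 392 when grouped by title, 100 at a keratin sum under 16 and 603 with no filter on low counts. It was 376 with cells carrying other markers counted among the other cells, and 97 to 392 with one library left out. The storage count of 140 was 0 at C1q of at least 10 per 10000 and at a keratin sum under 4, 79 at C1q of at least 5, 8 with DESeq2's Wald test and 39 with DESeq2 size factors. DESeq2's 8 storage calls were all among the 140. With 1 fresh library left out no residual degree of freedom remained for storage, so no count could be had. Without a filter on low counts 55.4% of platform calls were higher, against 44.9%. Relative calls were 48.0% higher when grouped by title, 12.1% without BD 2 and 13.4% with DESeq2's Wald test, against 28.8%. Gated shares moved to 1.40%, 2.49%, 1.78%, 1.78% and 2.56% (fresh 10x 1, fresh 10x 2, stored 10x, BD 1, BD 2) without cells carrying other markers, to 6.17% and 6.12% (BD 1, BD 2) among cells at most 20% mitochondrial, to 2.10% in stored 10x at a keratin sum under 4, and to 5.34% and 3.75% in the subsets of BD 1. Directions turned without cells carrying other markers for the platform changes of Ctsl (-1.40), Hmox1 (-0.030) and Aldoa (-0.14). The storage changes of Col1a1 (-0.35), F13a1 (-1.65) and Ube2c (-0.42) turned as well. With those cells counted among the other cells, the relative changes of Hal (-0.47), Ctsl (-0.36), Lck (5.47), Fabp5 (-0.25), Lgals3 (-0.52) and Mmp12 (-1.16) turned. Lck and Col1a1 are themselves among those markers, so the removal limits their counts directly. Storage of Col1a1 was -0.19 at C1q of at least 5, and that of Hspa1a ranged from -1.69 to 0.15 with a fresh library left out, turning without fresh 10x replicate 2. The cause was not tested. The platform calls of Plau, Nlrp3, Pim1, Mt2, Malat1, Tgfb1, Csf1r, Cd68, Apoe, Psap, Grn, Ctsd, Ctsz, Itgam, C5ar1, Msr1, Cd36, Tnf, Zfp36 and Nr4a1 passed under every alternative run. The enriched count of 660 stayed within 611 to 663 over other gates and was 940 with 1 CPM added. Few libraries, and 44 to 167 gated cells in each, limit the precision. No paired analysis was possible because the replicate numbers of the 10x and BD Rhapsody libraries are not tied by the labels to shared tumours and the groups share fewer than 2 numbers.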
